A study of Mus musculus with 38 samples.

Results

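The alternative promoters of protein-coding genes were examined in mouse soleus, a postural muscle of the lower leg. A promoter here is a cluster of transcription start sites measured by CAGE (cap analysis of gene expression), a method that sequences the capped 5′ ends of RNA so that each tag marks the start of 1 transcript. Clusters were assigned to the nearest annotated 5′ end of a transcript (GENCODE vM21, mm10) on the same strand and within 500 bp, and a gene was kept when at least 2 clusters fell to it. This gave 981 promoters in 451 protein-coding genes, out of 10819 clusters in all, 9615 of which could be assigned in this way. Promoters of a gene are numbered from the most upstream (P1) to the most downstream. The quantity compared is the share of a promoter, which is its tags as a percentage of the tags of all promoters of its gene in the same mouse.

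All animals were young adult male C57BL/6J mice, each giving 1 library, and all were sampled at the same time of day. Pre mice had free access to food and were taken on day 1. Mid mice lost their food and were taken on day 2, in or between bouts of daily torpor, the state of lowered metabolism that a fasted mouse enters in the cold. Post mice had their food back and were taken on day 3. Of 3 further groups taken on day 2, HiT mice were kept at a high ambient temperature, at which they did not enter torpor, Fed mice kept their food, and Dep mice were fasted but kept from torpor by touching. The study describes the HiT mice as fasted, whereas the design text of the series gives them food, and the label of the Fed mice reads starvation, so the labels differ on food. The groups are described here as the study gives them, HiT without food and Fed with it. Experiment 1 held 4 Pre, 8 Mid, 4 Post, 4 HiT, 4 Fed and 4 Dep mice, and experiment 2, a separate sequencing run, held 2 Pre, 5 Mid and 3 Post mice. Experiment 2 was read on lanes 3 and 4. All Pre libraries of experiment 2 were on lane 3 and all Post libraries on lane 4, while 4 Mid libraries were on lane 3 and 1 on lane 4.

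Many mammalian genes start transcription at several promoters. Each promoter answers to its own set of transcription factors, and the choice between them can change the first exon, the leader of the mRNA and sometimes the first amino acids of the protein. In muscle, Ppargc1a, which encodes the PGC-1α coactivator of mitochondrial genes, is a well-known case, with an upstream promoter that answers to exercise and β-adrenergic signals.

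The sequences upstream of RefSeq transcript starts near some of the promoters described here are shown as a description. Each is the 150 bases that end at the base before the RefSeq start (GRCm38.p6) closest to the cluster. It is written 5′ to 3′ on the strand of the gene. The RefSeq start lay 77 bases from the cluster peak at Atf3 P2, 57 at Rnh1 P2, 37 at Casz1 P1 and 25 at Ccnd3 P2. It lay 15 bases or fewer away at the others. At Rnh1 P2 the peak lay inside the stretch. The GC boxes there that begin 42 and 35 bases before the RefSeq start are therefore downstream of the measured peak. Capitals mark letters searched on both strands. These are the GC box (GGGCGG), the CCAAT box (CCAAT), the E-box (CACGTG) and the core of a cAMP response element (TGACG). Also searched, without a match in these 10 stretches, were the TATA box (TATAAA), the full cAMP response element (TGACGTCA, which holds TGACG), the AP-1 site (TGACTCA), the muscle E-box (CAGCTG) and the sites of ERR (TCAAGGTCA) and MEF2 (CTATTTATA). The first line is the Ppargc1a promoter that gained share in Mid. The next 3 lines are the upstream promoters of Lrch1, Casz1 and St3gal5, which lost share to a downstream promoter that is not shown. The following 2 lines are the downstream promoters of Ccnd3, which lost share in Mid, and of Atf3, which lost share in the warm group. The last 4 lines are both promoters of Cacnb1 and of Rnh1.
Ppargc1a P1, chr5:51567726-51567875, minus strand: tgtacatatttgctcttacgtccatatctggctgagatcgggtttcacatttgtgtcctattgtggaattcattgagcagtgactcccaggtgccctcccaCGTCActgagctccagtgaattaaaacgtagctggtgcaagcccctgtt
Lrch1 P1, chr14:74947878-74948027, minus strand: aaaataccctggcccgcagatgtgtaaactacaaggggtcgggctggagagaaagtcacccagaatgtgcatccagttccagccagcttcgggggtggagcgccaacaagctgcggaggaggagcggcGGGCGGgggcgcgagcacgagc
Casz1 P1, chr4:148804242-148804391, plus strand: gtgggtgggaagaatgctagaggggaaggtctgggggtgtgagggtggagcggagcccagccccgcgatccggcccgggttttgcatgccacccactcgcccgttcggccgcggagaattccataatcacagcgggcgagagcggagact
St3gal5 P1, chr6:72097458-72097607, plus strand: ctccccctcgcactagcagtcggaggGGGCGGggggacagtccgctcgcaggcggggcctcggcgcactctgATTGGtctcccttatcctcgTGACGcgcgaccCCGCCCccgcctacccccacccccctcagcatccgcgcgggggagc
Ccnd3 P2, chr17:47593317-47593466, plus strand: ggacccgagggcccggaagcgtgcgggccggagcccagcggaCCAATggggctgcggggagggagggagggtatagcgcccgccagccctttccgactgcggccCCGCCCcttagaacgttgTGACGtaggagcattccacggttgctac
Atf3 P2, chr1:191183334-191183483, minus strand: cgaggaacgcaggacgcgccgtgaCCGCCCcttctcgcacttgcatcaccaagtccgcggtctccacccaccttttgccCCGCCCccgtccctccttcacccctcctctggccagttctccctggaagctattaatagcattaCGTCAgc
Cacnb1 P1, chr11:98022628-98022777, minus strand: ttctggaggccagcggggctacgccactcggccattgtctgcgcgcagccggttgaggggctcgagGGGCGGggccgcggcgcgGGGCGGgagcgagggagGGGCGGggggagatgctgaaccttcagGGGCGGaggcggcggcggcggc
Cacnb1 P2, chr11:98018373-98018522, minus strand: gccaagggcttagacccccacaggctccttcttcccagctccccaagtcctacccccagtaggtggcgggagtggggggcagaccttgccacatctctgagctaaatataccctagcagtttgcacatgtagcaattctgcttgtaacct
Rnh1 P1, chr7:141172852-141173001, minus strand: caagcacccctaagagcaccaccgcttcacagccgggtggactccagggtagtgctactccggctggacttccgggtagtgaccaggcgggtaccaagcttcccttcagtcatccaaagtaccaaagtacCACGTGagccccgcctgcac
Rnh1 P2, chr7:141168687-141168836, minus strand: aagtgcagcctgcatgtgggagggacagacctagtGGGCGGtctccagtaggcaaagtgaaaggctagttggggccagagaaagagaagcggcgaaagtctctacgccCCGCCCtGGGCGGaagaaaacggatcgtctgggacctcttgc

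The promoters of Cacnb1 differed in these letters. The stretch upstream of P1 held 4 GC boxes and 20 CG pairs, whereas that upstream of P2 held none of the searched letters and 1 CG pair. At Ppargc1a P1, TGACG lay on the opposite strand and began 49 bases before the start. Over the full RefSeq windows (250 bases before to 50 bases after a start), 419 of the 981 promoters, 42.7%, matched a start within 100 bp. Of these 419 windows, 66.8% held a GC box and 32.9% held TGACG, beside 69.8% and 35.6% of the 5779 windows matched by any cluster, and 35.6% and 20.8% of all 32817 windows. The next values are for matched promoters of called genes whose share changed by over 5 points between Pre and Mid. A GC box stood in 78.2% of the 55 that gained share and in 69.8% of the 53 that lost it. TGACG stood in 36.4 and 26.4%, the CCAAT box in 43.6 and 35.8%, and the muscle E-box in 12.7 and 20.8%. None of these differences was tested. A match of letters is a description of the sequence and shows no binding.

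Most of the 451 genes had a simple layout. There were 396 genes with 2 promoters, 40 with 3, 10 with 4 and 3 with 5, while Plec, which encodes the cytoskeletal linker plectin, had 6 and Ttn, which encodes titin, had 8. The distance between the outermost promoters of a gene was 4417 bp in the median and ran from 103 bp to 1139800 bp at Prkg1. In 152 genes it was below 1000 bp, so that the clusters may be neighbouring start regions rather than distant promoters. In 96 genes the nearest transcripts of the promoters had different annotated start codons, in 132 they shared a start codon, and in 223 at least 1 promoter led to a transcript without one. In 16 genes a promoter window also held the 5′ end of another gene. The leading promoter held 71.8% of the tags of its gene in the median over genes, more than 90% in 85 genes and less than 60% in 113 genes.

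Libraries of experiment 1 held between 18257657 and 39176649 tags in the clusters and those of experiment 2 between 9359994 and 20914855, of which the alternative promoters took between 7.25 and 15.4%. All 7 markers of slow muscle were above 0 in every library. In experiment 1 their summed level was between 6503 and 18022 TPM, with the lowest value in a HiT library. TPM is the tags of a promoter scaled to the total of the library. All 8 markers of fast muscle were also above 0 in every library, at a summed level between 7886 and 19340 TPM in experiment 1. In experiment 2 the sums were between 19050 and 29059 TPM for slow muscle and between 19002 and 27248 TPM for fast muscle. Markers of macrophages summed to between 145 and 437 TPM in the HiT libraries and to at most 102 TPM in every other library of experiment 1. All 7 macrophage markers with a cluster were above 0 in every library, and Adgre1 had no cluster. Markers of adipocytes varied widely within groups, for example between 156 and 1594 TPM in Dep. The SD of a share within a group was 2.34 points in the median. Shares differed more between the experiments than that. The median absolute difference of the Pre share between experiments was 4.83 points, and 34 genes differed by over 20 points. For example, P1 of Plin3, which encodes a lipid droplet protein, held 58.1% in Pre of experiment 1 and 23.0% in Pre of experiment 2. For this reason shares were compared only within an experiment.

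Mid replicate 6 of experiment 1 and Mid replicate 10 of experiment 2 stood apart. At several genes their shares lay toward those of Pre. At St3gal5 P1, Mid replicate 6 was at 84.2%, beside 81.2 to 89.3% in Pre and 40.2 to 60.02% in the other Mid mice of experiment 1. Mid replicate 10 was at 81.2%, beside 50.03 to 52.96% in the other Mid mice of experiment 2. The mean change from Pre to Mid in experiment 2 was -32.1 points. Both mice were kept. Without Mid replicate 6 the mean change at St3gal5 P1 in experiment 1 was -36.4 points, in place of -32.0. Without Mid replicate 10 the count of genes called for Mid against Pre in experiment 2 was 108, in place of 101. Some further values without Mid replicate 6 are given below.

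Between Pre and Mid the promoter share changed in 166 of 450 genes tested (Mid against Pre, experiment 1, FDR below 0.05). This is 36.9%, beside 36.4% of all 459 genes of any biotype with at least 2 promoters. Leaving out Mid replicate 6 gave 182 genes. Pre and Mid differ in food, day and torpor together, so these cannot be told apart in this comparison. The median size of the change in the called genes was 8.32 points, 68 genes changed by over 10 points, 22 by over 20, and in 30 the leading promoter was a different one in Mid than in Pre. No direction along the gene prevailed. The upstream promoter gained share in 67 and lost share in 77 of the called genes with 2 promoters. By distance between promoters, 23.7% of genes spanning under 1000 bp were called, 37.6% of those spanning 1000 to 10000 bp and 47.5% of those spanning more, and the difference between these classes was not tested. The share test of diffSpliceDGE in edgeR called 75 genes, all of them among the 166.

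**Figure D1:**
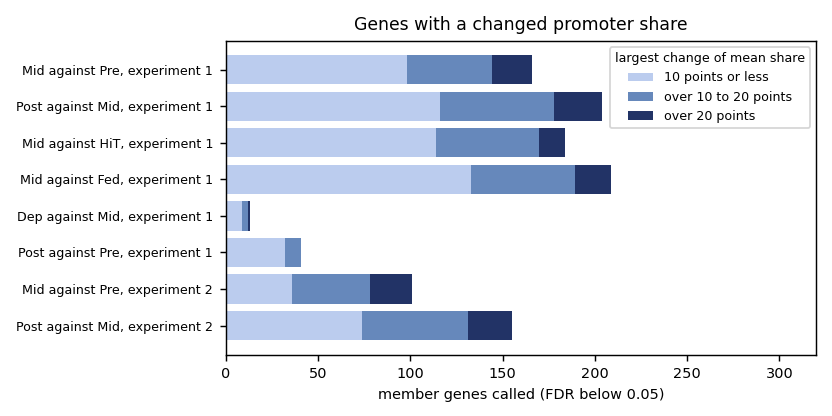
Number of protein-coding genes with a changed promoter share (FDR below 0.05, horizontal axis) in each of 8 comparisons, with the colours splitting them by the largest change of a mean share in percentage points. The 4 comparisons of experiment 1 that set Mid against Pre, Post, HiT or Fed hold between 166 and 209 genes, whereas Dep against Mid holds 13 and Post against Pre 41.

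The largest shift was at Ppargc1a, on chromosome 5. Its promoters lie 13853 bp apart (P1 51567615–51567874, P2 51553735–51554071, minus strand) and lead to transcripts with different start codons. The share of P1 in the 4 Pre mice was 11.95, 4.95, 3.68 and 30.1%. In the 8 Mid mice it ran from 37.2% through a median of 82.8% to 91.5%, and in the 4 Dep mice it was 82.4, 83.9, 84.6 and 89.4%. Pre and Mid did not overlap, and the lowest Mid value was that of replicate 6. The mean rose by 65.7 points from Pre to Mid (71.6 points without Mid replicate 6), a log2 odds ratio of 5.31 ± 0.661 (SE, adjusted p = 4.15e-07). In the 4 Post mice P1 was back at 8.93, 5.54, 4.89 and 11.3%, and in the Fed mice it lay between 1.27 and 11.9%. The HiT mice, at 51.2, 62.9, 71.9 and 60.4%, lay above every Pre, Post and Fed mouse. They lay below every Mid mouse except replicate 6, the lowest of the other Mid mice being at 75.65%.

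The levels of the promoters differed in the same way. Ppargc1a P1 rose from 7.10 ± 8.12 TPM in Pre (SD, n = 4) to 182 ± 104 TPM in Mid (n = 8), a log2 fold change of 4.78 ± 0.67. P2 was at 42.3 ± 3.04 TPM in Pre and 34.3 ± 6.89 TPM in Mid, with a log2 fold change of -0.20 ± 0.14 that did not pass the test (adjusted p = 0.282). In HiT, P1 reached 30.1 ± 8.84 TPM, far below Mid, although its share was 61.6%, because P2 was also lower there, at 18.2 ± 3.84 TPM.

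A similar gain by 1 promoter was seen at Lrch1, Ampd3, St3gal5, Slc30a2 and Pde4d. Lrch1 encodes a leucine-rich repeat protein with a calponin homology domain, on chromosome 14 (minus strand). Its P1 held 83.8, 89.3, 91.6 and 88.8% in Pre and from 28.4% through 37.6% to 65.8% in Mid, without overlap. The downstream P2, 47954 bp away, rose from 1.33 ± 0.491 to 19.2 ± 7.03 TPM (log2 fold change 3.90 ± 0.36), whereas P1 was at 9.89 ± 1.8 and 12.4 ± 2.92 TPM (adjusted p = 0.0549).

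Ampd3, which encodes an AMP deaminase, lies on chromosome 7 (plus strand). P1 (110767887–110769008) held 52.2, 52.9, 55.8 and 50.3% in Pre and from 10.1% through 15.5% to 36.8% in Mid. These groups did not overlap, and the highest Mid value was again replicate 6. P2 (110772529–110772962), 4551 bp downstream, rose from 9.46 ± 1.22 to 68.9 ± 27.8 TPM, while P1 rose from 10.5 ± 0.44 to 12.8 ± 2.2 TPM. The log2 fold changes were 2.92 ± 0.27 and 0.35 ± 0.10, and both passed the test.

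St3gal5, which encodes the synthase of the ganglioside GM3, is on chromosome 6 (plus strand). Its downstream promoter P2 (72115154–72115395) held 16.4, 12.1, 10.7 and 18.8% in Pre and from 15.8% through 50.02% to 59.8% in Mid. The ranges overlapped through Mid replicate 6 alone. P2 rose from 35.5 ± 13.5 to 174 ± 68.2 TPM and P1 was at 204 ± 20 and 184 ± 36.8 TPM, a difference that did not pass the test (adjusted p = 0.683). These promoters lead to transcripts with different start codons.

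At Slc30a2, which encodes a zinc transporter, P1 and P2 lie only 812 bp apart on chromosome 4. P2 held 85.9, 92.5, 86.1 and 93.3% in Pre and from 23.1% through 46.6% to 74.5% in Mid. The rise of P1 from 0.542 ± 0.169 to 7.84 ± 6.22 TPM carried the change, and P2 was at 4.76 ± 0.938 and 5.96 ± 1.5 TPM (adjusted p = 0.157). Levels of P1 were low in Pre, so its share there rests on few tags.

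Pde4d encodes a phosphodiesterase that breaks down cAMP, on chromosome 13 (plus strand), and had 4 promoters across 239086 bp with different start codons. The most downstream one, P4 (109924899–109925275), held 5.94, 6.97, 4.36 and 16.4% in Pre and from 27.7% through 51.6% to 67.9% in Mid. P4 rose from 4.73 ± 3.67 to 63.5 ± 28.1 TPM. Of the other promoters, P3 rose with a log2 fold change of 0.53 ± 0.14, and P1 and P2 had values of 0.07 ± 0.12 and 0.16 ± 0.13 that did not pass the test.

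**Figure D2:**
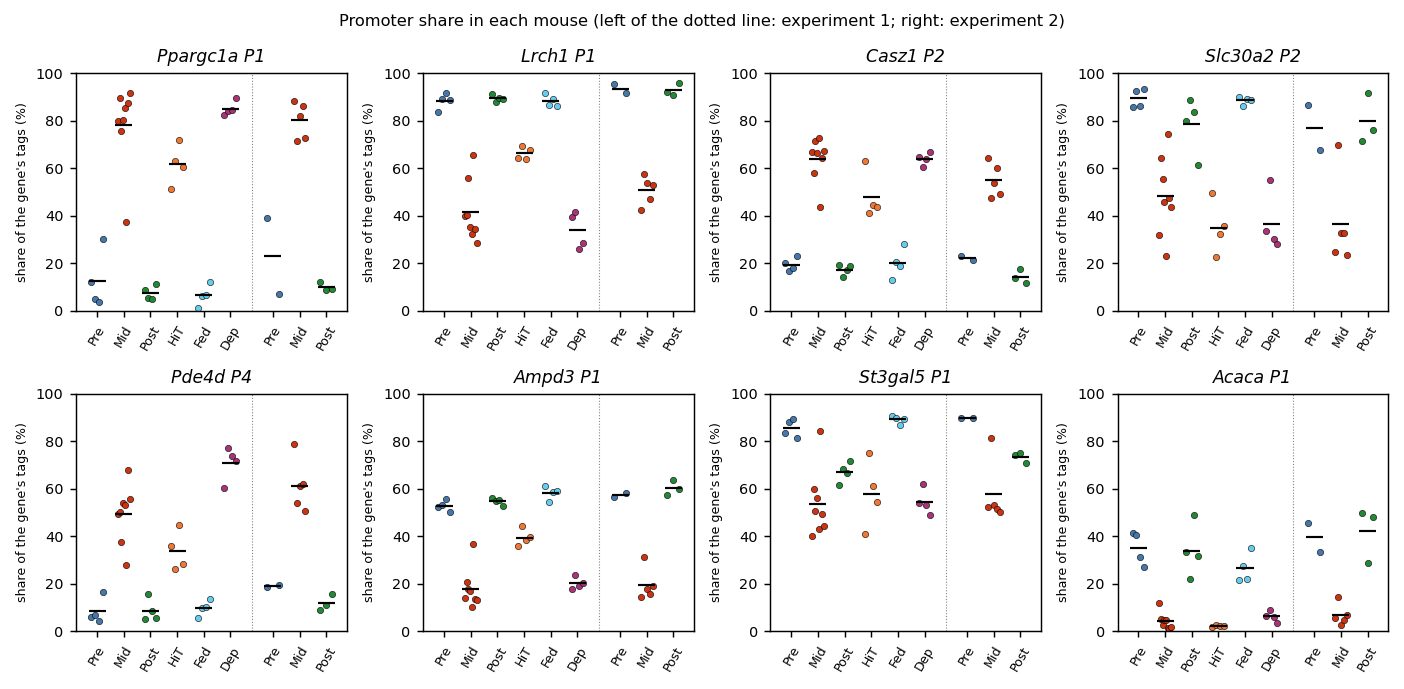
Share of 1 promoter in the tags of its gene (percent, vertical axis) for 8 genes in each mouse, by group of experiment 1 (left of the dotted line) and experiment 2 (right), with horizontal lines for group means. At Ppargc1a P1 the means are 12.7% in Pre, 78.4% in Mid and 7.66% in Post of experiment 1 and 23.2, 80.1 and 10.1% in experiment 2.

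At other genes the promoters moved in opposite directions or 1 promoter was lost. Of the 166 called genes, 30 had promoters whose levels rose and fell, both past the test, 87 had at least 1 promoter called in 1 direction only and another not called, in 25 all promoters changed the same way, and in 24 no single promoter passed the test. Levels were called for 364 of 980 promoters (191 higher and 173 lower in Mid), or 37.1%, beside 30.2% of all 10776 clusters. Against Post the count was 424 (43.3%, beside 35.0% of all clusters) and against Fed 399 (40.7%, beside 35.2%). Without TMM scaling 202 promoters were called against Pre, of which 40.1% were higher in Mid, in place of 52.5%. Against Fed the part higher in Mid went from 45.9 to 28.1%, and against Post the count was 258.

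Casz1, which encodes a zinc-finger transcription factor, is an example of opposite movement. Its promoters lie 96729 bp apart on chromosome 4 and share a start codon. P2 held 19.9, 16.6, 18.2 and 22.9% in Pre and from 43.7% through 66.5% to 72.9% in Mid, without overlap. P1 fell from 11.2 ± 1.1 to 6.01 ± 0.867 TPM and P2 rose from 2.72 ± 0.617 to 11.1 ± 2.92 TPM. Ccnd3, which encodes the cell cycle regulator cyclin D3, had the same pattern, with P1 up by a log2 fold change of 1.39 ± 0.22 and P2 down by -0.64 ± 0.15. Its P2 share was 79.2% ± 5.49 in Pre and 48.0% ± 11.2 in Mid.

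Prkg1, which encodes a cGMP-dependent protein kinase, had the most distant promoters (chromosome 19, P1 31764688–31765324, P2 30625395–30625567, minus strand). The downstream P2 held 48.4, 65.2, 58.9 and 47.4% in Pre and from 9.01% through 16.1% to 33.8% in Mid. It fell from 9.43 ± 3.0 to 2.29 ± 1.22 TPM, while P1 rose from 7.48 ± 1.27 to 9.30 ± 0.989 TPM.

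Promoters of lipid and glucose enzymes were among those lost. Acaca encodes the acetyl-CoA carboxylase that starts fatty acid synthesis. Its most upstream promoter P1 (chromosome 11, 84173213–84173534) held 41.3, 40.7, 31.4 and 26.9% in Pre and from 1.04% through 3.64% to 12.03% in Mid. It fell from 14.9 ± 6.61 to 0.910 ± 1.03 TPM, while P2 was at 19.7 ± 4.12 and 14.6 ± 2.89 TPM (adjusted p = 0.0701). The downstream promoter of Srebf1, known for the isoform SREBP-1c of this regulator of lipid synthesis, fell from 49.5% ± 6.08 to 29.2% ± 4.85. The downstream promoter of Pcx, which encodes pyruvate carboxylase, fell from 35.3% ± 6.03 to 10.6% ± 7.51, with P1 at 14.1 ± 3.1 and 13.4 ± 2.13 TPM. The summed level of the 6 adipocyte markers was 587 TPM in the median of Pre (249 to 871) and 321 TPM in that of Mid (86.3 to 1144), and its part in these results was not tested. In whole muscle, fewer cells of a type and less RNA per cell cannot be told apart.

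**Figure D3:**
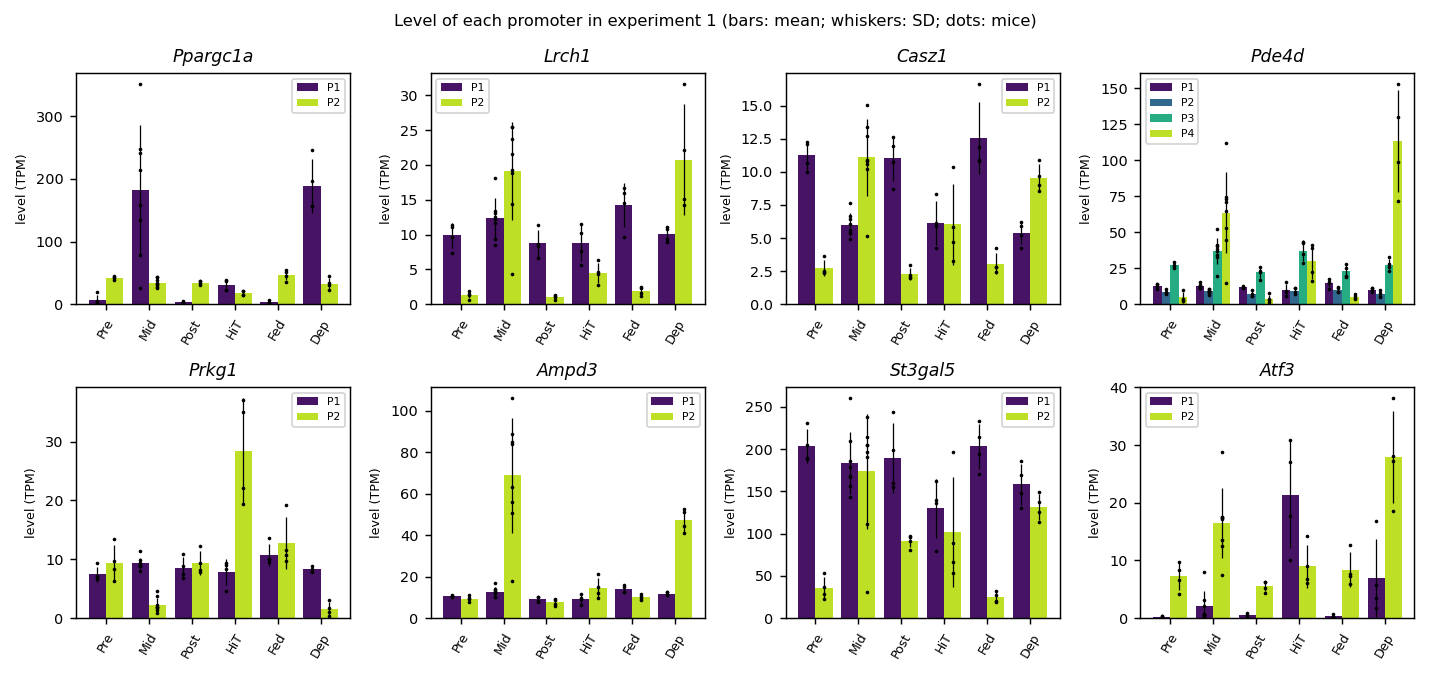
Level of each promoter (TPM, vertical axis) in the 6 groups of experiment 1 for 8 genes, with bars for means, whiskers for the SD and dots for mice. At Ppargc1a, Lrch1, Pde4d, Ampd3 and St3gal5 the rise from Pre to Mid is mainly at 1 promoter, although St3gal5 P1 is also high in Mid. At Casz1 P1 falls as P2 rises, and at Prkg1 and Atf3 a promoter is highest in HiT.

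For 12 such shifts an exact permutation test of the mean share (two-sided) was run on the mice alone. In 11 of the 12 it gave the smallest p that the group sizes allow, which is 0.00404 for 8 against 4 mice and 0.0286 for 4 against 4. St3gal5 gave an exact p = 0.0121. After adjustment over the 12 tests the values were between 0.00485 and 0.0286. These genes were chosen for their size of change, so the p-values describe the separation of the mice and are not independent evidence.

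By function, 4 lists of genes were examined, which hold only some of the called genes. The lists were chosen with earlier results of these data known. A higher part called in a list is therefore no evidence about its function. Of 19 transcription regulators with alternative promoters, 10 were called, among them Hdac5, Nfatc1, Nfe2l1, Nr3c1, Per1, Ppargc1a, Srebf1 and Tef, beside 36.9% of all genes tested. P1 of Nr3c1, the glucocorticoid receptor, fell from 55.4% ± 4.5 to 41.1% ± 3.4. Of 13 metabolism genes 8 were called (Acaca, Acacb, Acsl1, Agpat3, Ampd3, Cd36, Pcx and Pnpla2). Some calls were of small changes, as at Pnpla2, which encodes the lipase ATGL, where P1 went from 97.95% ± 0.35 to 96.3% ± 0.48. Of 16 signalling and membrane genes 5 were called (Homer1, Pde4d, Ppp1r12b, Slc30a2 and Slc39a14). P2 of Slc39a14, which encodes a zinc importer, rose from 7.19% ± 2.2 to 32.2% ± 9.1.

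Of 21 muscle contractile and cytoskeleton genes 8 were called, or 38.1%, beside 36.9% of all genes tested. These were Dst, Kalrn, Palld, Plec, Smtn, Speg, Svil and Tns1, which encode scaffold, adaptor or signalling proteins. The largest were Smtn, which encodes smoothelin, with P1 at 23.8% ± 1.1 in Pre and 47.6% ± 6.8 in Mid, and Svil, which encodes supervillin, with P2 at 62.2% ± 1.4 and 77.8% ± 3.0. Ttn, Tpm1, Tpm2, Des, Atp2a1 and Tnnt1 did not pass the test. Myl1, whose promoters give the 2 alkali light chains of fast myosin, had P1 at 41.6% ± 1.8 in Pre and 41.8% ± 1.5 in Mid and did not pass it either. Des and Atp2a1 had nearly all their tags at P1, with means of 3185 and 8563 TPM in experiment 1. Des P2 was at 10.1 TPM and each other Atp2a1 promoter at 14.6 TPM or less. The part of this layout in the result was not tested. For Mid against HiT, the filament genes Myl1 and Tpm3 were called.

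Among genes outside these lists, those with the smallest adjusted p over the 6 conditions include Sgms1 and Sar1a. P2 of Sgms1, which encodes a sphingomyelin synthase, went from 23.0% ± 3.7 to 41.7% ± 4.2, and P2 of Sar1a, which encodes a GTPase of transport vesicles, from 13.8% ± 2.6 to 28.9% ± 3.4. P1 of H6pd, an enzyme that makes NADPH in the endoplasmic reticulum, went from 74.2% ± 10 to 45.5% ± 12, with overlapping mice.

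The change from Pre to Mid was measured again in the separate mice of experiment 2. Of the 166 genes called in experiment 1, the promoter with the largest change moved the same way in experiment 2 in 159 (95.8%). For genes not called, it was 202 of 284. In experiment 2, 101 of 451 genes were called (22.4%, beside 22% of all 460 genes), and 30 by diffSpliceDGE. Of the 101 genes, 85 were called in both experiments, or 51.2% of the first list and 84.2% of the second. Without Pre replicate 5 or Pre replicate 6, 1 Pre mouse is left, assumed to vary like the other groups, and the count fell to 47 or 33. Across the 166 genes Pearson's r of the changes in the 2 experiments was 0.96, a description over genes that share libraries.

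**Figure D4:**
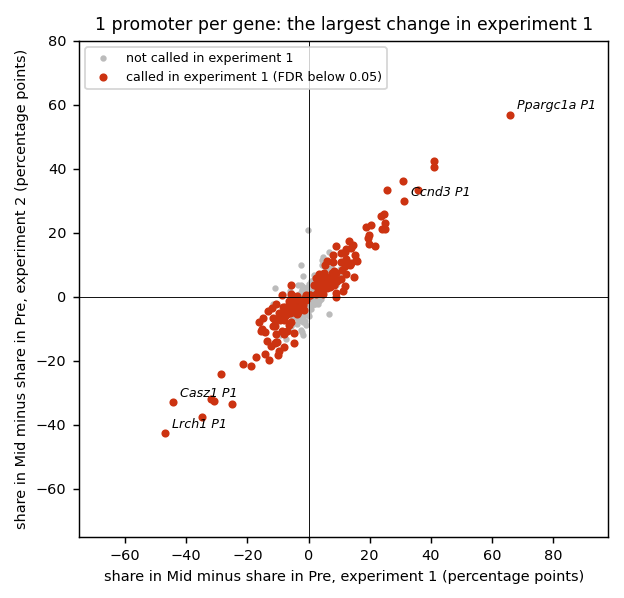
Change of promoter share between Pre and Mid (percentage points) in experiment 1 (horizontal axis) and experiment 2 (vertical axis), with 1 promoter per gene and genes called in experiment 1 in red. Of the 166 red points, 159 lie in the quadrants where both changes have the same sign.

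No gene differed between experiments in its change from Pre to Mid (0 of 451 at FDR below 0.05 by edgeR, DESeq2 and limma, beside 0.0% of all genes, and 17 at an unadjusted p below 0.05 by edgeR). Ppargc1a P1 was at 39.2 and 7.21% in Pre and from 71.4% to 88.3% in the 5 Mid mice of experiment 2. Lrch1 P1 was at 95.3 and 91.5% in Pre and from 42.4% to 57.4% in Mid. Ampd3 P1 was at 56.3 and 58.0% in Pre and from 14.6% to 31.03% in Mid, with the highest value in replicate 10. The 7 genes called in experiment 1 with the opposite sign in experiment 2 were Baz2b, Plin3, Pagr1a, Elmsan1, Qrich1, Hmgb1 and Aldh1a1, which were named because of these values.

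When food was returned the shares moved again. Post against Mid called 204 of 450 genes (45.3%, beside 45.3% of all genes tested) in experiment 1 and 155 of 451 (34.4%, beside 33.9%) in experiment 2. With the lane as a term the second count fell to 68, and all Post libraries were on 1 lane. Post and Pre were closer to each other, with 41 genes called (9.11%, beside 8.93%) and no change over 20 points. With diffSpliceDGE the count was 118 for Post against Mid in experiment 1, 53 in experiment 2 and 8 for Post against Pre. Lrch1 P1 was at 91.4, 87.9, 89.6 and 89.1% in Post, and Ampd3 P1 at 56.2, 54.7, 55.1 and 52.5%, each close to its Pre range.

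Some genes differed from Pre on day 3. P1 of Cacnb1, which encodes a β subunit of the muscle calcium channel, held 19.8, 20.6, 23.6 and 18.5% in Pre and 44.6, 39.7, 28.5 and 48.3% in Post, without overlap. The change was 19.6 points (adjusted p = 0.000419), and Mid was near Pre at 24.3% ± 4.76. Cacnb1 P1 is the promoter with 4 GC boxes in the sequence above. In experiment 2, P1 was at 27.4 and 33.3% in Pre and 49.9, 55.9 and 59.2% in Post. There Pre and Post were on different lanes, so group and lane cannot be told apart, and these groups were not tested against each other.

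St3gal5 and Ppip5k1 differed from Pre in Mid and still did in Post. St3gal5 P2 held 38.3, 31.6, 33.6 and 28.4% in Post, between Pre and most Mid mice. Its difference between Post and Pre was called (adjusted p = 0.0206) but not without Post replicate 1, Pre replicate 2 or Pre replicate 3. P2 of Ppip5k1, an inositol pyrophosphate kinase, was at 9.64% ± 0.84 in Pre, 21.4% ± 3.1 in Mid and 23.5% ± 2.1 in Post (adjusted p for Post against Pre 1.41e-06). In experiment 2, P2 was at 10.9, 20.2 and 22.3%, with Pre and Post on different lanes and not tested against each other.

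Against the fed mice of the same day, 209 of 450 genes were called (Mid against Fed, 46.4%, beside 45.8% of all genes tested), with 20 over 20 points, and diffSpliceDGE called 87. This comparison and those with Pre and Post share the Mid libraries. Ppargc1a, Lrch1, Casz1, Slc30a2, Ampd3, Pde4d and St3gal5 led it. Fed shares lay close to Pre at these genes, as at Casz1 P2 with 12.9, 20.4, 18.99 and 28.2%. The upstream promoter had the higher share in Mid in 75 and the lower share in 111 of the called genes with 2 promoters.

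Dep and Mid mice differed in the share of few genes by the main test. Dep against Mid called 13 of 450 genes (2.89%, beside 2.83% of all genes tested, and 81 at an unadjusted p below 0.05). This count rests on single mice. It was 0 without Dep replicate 2, 1 without Dep replicate 4, 5 without Dep replicate 1, 8 without Mid replicate 3, 21 without Mid replicate 6, and 0 in a fit of the 2 groups alone. DESeq2 called 20 and diffSpliceDGE 0. Dep replicate 1 had neutrophil markers at a summed 117 TPM, beside a Dep median of 0.701 and at most 1.74 in the other groups of experiment 1, and their part in these results was not tested. The largest change was at Pde4d P4, which held 60.1, 77.3, 73.9 and 71.6% in Dep, 21.3 points above Mid (adjusted p = 0.0141). It was no longer called without Dep replicate 2 or Dep replicate 4, and the ranges overlapped. P4 reached 113 ± 35.6 TPM in Dep.

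Fam214a and Wbp4 were also called with over 10 points. P1 of Fam214a held 76.6% ± 4.7 in Dep and 63.7% ± 5.3 in Mid, without overlap. At several genes with large shifts between Pre and Mid, the Dep and Mid mice overlapped. Lrch1 P1 was at 39.5, 41.6, 26.01 and 28.7% in Dep, of which 26.01% lay below every Mid mouse. Ampd3 P1 was at 17.7, 23.7, 19.2 and 20.4%, all within the Mid range. Levels of 22 of 980 promoters were called (2.24%, beside 2.03% of all clusters), 6 higher and 16 lower in Dep, and this count fell to 2 without Dep replicate 2 and to 1 without TMM scaling, and was 45 with DESeq2.

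Shares in mice kept warm differed from those of Mid at many genes. Mid against HiT called 184 of 450 genes (40.9%, beside 40.1% of all genes tested), and diffSpliceDGE called 72. Over the 6 conditions 333 genes were called (74.0%, beside 73.2%), and HiT was the group whose mean share lay farthest from the others in 94 of them (28.2%), followed by Post with 58, Fed with 56, Dep with 54, Mid with 46 and Pre with 25. Levels were called for 457 of the 980 promoters (46.6%, beside 41.0% of all clusters), 307 higher and 150 lower in Mid than in HiT, and without TMM scaling for 301.

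Atf3, which encodes a stress-induced transcription factor, used its upstream promoter in HiT. P1 (chromosome 1, 191217868–191218088, minus strand), 34686 bp from P2, held 65.4, 72.2, 77.5 and 62.6% in HiT. In Mid it ran from 2.81% through 4.14% to 39.1%, with the highest value in replicate 2, and in Pre it was 0.328, 1.70, 6.61 and 5.13%. P1 reached 21.4 ± 9.35 TPM in HiT against 2.03 ± 2.63 TPM in Mid, while P2 was at 9.03 ± 3.72 TPM in HiT and 16.5 ± 6.12 TPM in Mid. Both level differences passed the test, in opposite directions. In Dep, Atf3 P2 was highest at 28.01 ± 7.98 TPM and P1 held 17.7% ± 13.8.

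Prkg1 P2, which lost share in Mid, gained it in HiT. It held 79.8, 79.5, 72.7 and 80.5% there, above every mouse of the other 5 groups, and reached 28.4 ± 8.97 TPM. P1 was at 7.86 ± 2.16 TPM in HiT and 9.30 ± 0.989 TPM in Mid (adjusted p = 0.277). Mid and HiT thus lay on opposite sides of Pre at this gene.

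Rnh1, which encodes the ribonuclease inhibitor, had P2 at 63.7, 65.5, 47.5 and 59.5% in HiT and from 19.4% through 27.4% to 31.99% in Mid. P2 was at 15.9 ± 7.3 TPM in HiT and 3.497 ± 0.77 TPM in Mid, while P1 was at 10.3 ± 2.58 and 9.59 ± 1.76 TPM. Pre shares of P2, at 27.4% ± 3.32, were like those of Mid. Lsp1, which encodes an actin-binding protein of leukocytes, had 4 promoters, of which P3 rose to 33.2% ± 3.5 in HiT from 14.2% ± 3.9 in Mid and P4 was at 24.7% ± 4.7 in HiT and 50.5% ± 6.2 in Mid. The higher sum of macrophage markers in HiT given above stands beside the results at Lsp1, Rnh1, Atf3 and Prkg1, and its part in them was not tested.

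Ccnd3 and Acyp1 also separated HiT from Mid. Ccnd3 P2 held 77.8, 79.5, 67.4 and 82.8% in HiT, close to Pre. The mean share of P2 of Acyp1, an acylphosphatase, was 59.9% ± 1.9 in HiT and 38.3% ± 5.11 in Mid. Plec was called as well, with P1 at 31.04% ± 2.4 in HiT and 17.6% ± 1.5 in Mid, and Myl1 P1 was at 47.6% ± 4.6 in HiT. The call at Myl1 was lost without HiT replicate 2 or HiT replicate 4.

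At Lrch1 and Ampd3, HiT lay between Pre and Mid. The mean P1 share of Lrch1 was 88.4% in Pre, 66.3% in HiT and 41.5% in Mid, and that of Ampd3 was 52.8, 39.4 and 17.9%. At Acaca, Smtn and Sgms1 the mean of HiT lay as far from Pre as that of Mid or farther. Acaca P1 held 1.90, 2.53, 2.02 and 2.13% in HiT, Smtn P1 was at 49.9% ± 3.0 and Sgms1 P2 at 43.7% ± 3.8.

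**Figure D5:**
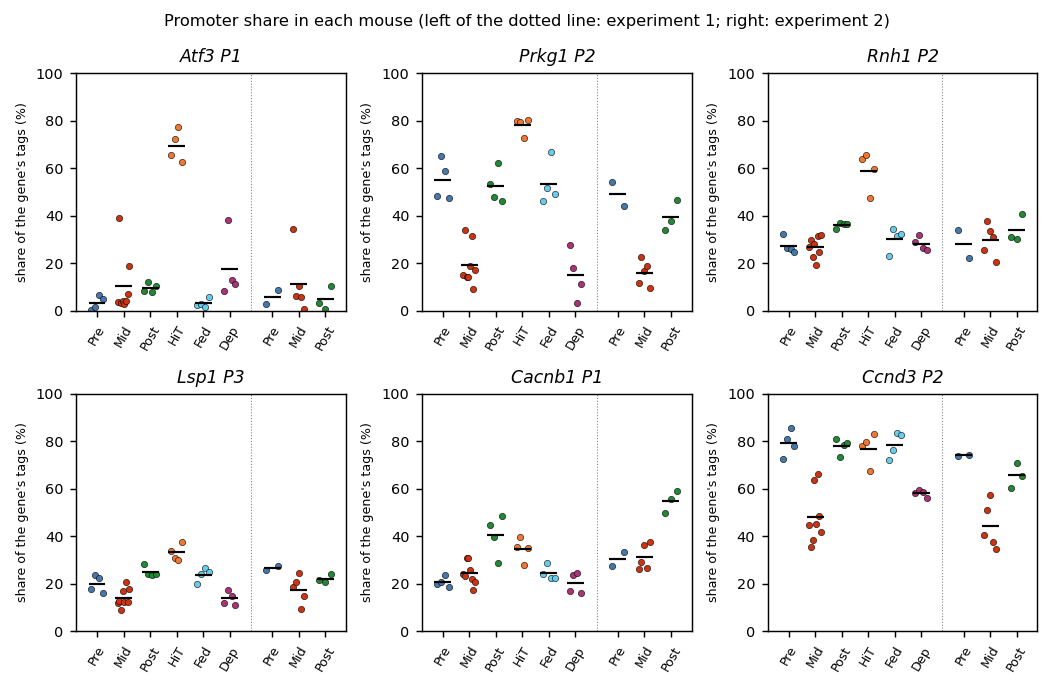
Share of 1 promoter in the tags of its gene (percent, vertical axis) for 6 genes in each mouse, by group of experiment 1 (left of the dotted line) and experiment 2 (right), with horizontal lines for group means. Atf3 P1, Prkg1 P2 and Rnh1 P2 are highest in HiT with means of 69.4, 78.1 and 59.0%, and Cacnb1 P1 is highest in Post with 40.3% in experiment 1 and 55.0% in experiment 2.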

How the data were processed

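The authors aligned the reads to mm10 (GRCm38) with BWA and HISAT2 and clustered start sites with PromoterPipeline. Per the labels and file headers, they deposited raw tag counts and TPM values per cluster and library. No versions are given in the sources used here. The 38 libraries were grouped by title, and experiment and lane come from the descriptions. Members and gene lists were chosen with earlier results of these data known.

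Shares were computed from the counts. They were tested with edgeR 4.0.16 (R 4.3.3) by the quasi-likelihood test on 2 columns per mouse, the tags of a promoter and the tags of the other promoters of its gene, with the mouse as a block. For a gene with 2 promoters the p-value of the first was taken, since the other mirrors it. For a gene with more, the p-values were combined by Simes' method. Gene p-values were adjusted by Benjamini-Hochberg over all genes with at least 2 promoters of any biotype (FDR below 0.05). Promoters with fewer than 10 tags in a fit were left out, which removed Camk2a from experiment 1. Fits used all libraries of an experiment. Levels were tested by edgeR with TMM normalization. Deposited TPM values are only described. Standard errors are those of the fits on the log2 scale. Alternatives used DESeq2 1.42.0, limma 3.58.1, diffSpliceDGE, other filters and windows, a lane term, a replicate block and each library left out.

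Named were the 8 called genes with the largest change in each comparison of experiment 1 (at least 2 TPM in both groups). The 8 with the smallest adjusted p over the 6 conditions and all genes of the 4 lists were also named. Replicate numbers did not pair the mice, since 13 of 60 same-numbered pairs correlated above 0.1. No 2 libraries of a group were alike (72 pairs). The labels do not tell whether the mice of a group shared a cage or a litter. Some genes that meet this rule are not reported here. Scripts were tested on simulated data.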

Additional observations from a re-analysis of the deposited data

Results flagged for a closer look

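Among 217 groups of 4 to 10 mice at the genes examined, 24 held a mouse whose share lay far from the rest (Dixon's test at 95%), where chance flags about 1 in 20. Mid replicate 6 of experiment 1 was such a mouse at Ppargc1a P1 (37.2%), Ampd3 P1 (36.8%), St3gal5 P1 (84.2%), Retreg1 P1 (3.21%) and Lsp1 P4 (36.9%), and at all of these except Lsp1 it lay on the side of Pre. Mid replicate 10 of experiment 2 was such a mouse at Ampd3 P1 (31.03%), Slc30a2 P2 (69.7%) and St3gal5 P1 (81.2%), also toward Pre.

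The warm group and the touched group held a few. HiT replicate 1 was at 62.9% at Casz1 P2, and HiT replicate 3 was at 72.7% at Prkg1 P2 and 31.7% at Lsp1 P4. At Atf3 P1, Mid replicate 2 reached 39.1% and Dep replicate 2 reached 38.2%. Fed replicate 1 was high at Acyp1 P1 (65.5%), and Fed replicate 4 was low at Wbp4 P1 (43.0%).

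The remaining flags of Mid mice were Dlc1 P1 at 20.3% in Mid replicate 1, Pkig P3 at 10.7% in Mid replicate 3, Wbp4 P1 at 48.4% in Mid replicate 12, and Pkig P3 at 14.7% and Rbfox2 P1 at 56.7% in Mid replicate 13. Ccdc90b P1 was at 61.9% in Pre replicate 3, Sar1a P1 at 82.3% in Pre replicate 4, Fam214a P1 at 76.1% in Post replicate 2 and Dlc1 P1 at 25.3% in Post replicate 4.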

How the results depend on the processing

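No named gene that was called in a pairwise comparison changed direction in it under any alternative. Named genes that were not called were not checked for this. With diffSpliceDGE the genes called fell to 75 (Mid against Pre), 118 (Post against Mid), 72 (Mid against HiT), 87 (Mid against Fed), 0 (Dep against Mid) and 8 (Post against Pre) in experiment 1, and to 30 (Mid against Pre) and 53 (Post against Mid) in experiment 2. The cause was not tested. The lane term gave 68 for Post against Mid in experiment 2, where lane and group overlap. Dep against Mid gave 20 with DESeq2, 0 with the 2 groups alone and 42 with the replicate block, of which 10 were among the 13. Levels of Dep against Mid gave 45 with DESeq2, 39 with the replicate block and 1 without TMM. Without TMM, levels gave 202 (Mid against Pre), 258 (Post against Mid) and 301 (Mid against HiT). The median log2 change of all clusters in these fits was -0.07 (Mid against Pre), -0.12 (Mid against Fed) and 0.11 (Mid against HiT). The part of called promoters higher in Mid then went from 52.5 to 40.1% against Pre, from 45.9 to 28.1% against Fed and from 67.2 to 76.4% against HiT. Shares do not depend on this scaling.

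Leaving out each library gave from 137 to 182 genes for Mid against Pre, 171 to 215 for Post against Mid, 152 to 203 for Mid against HiT, 175 to 222 for Mid against Fed, 0 to 21 for Dep against Mid, 29 to 50 for Post against Pre, 316 to 340 over the 6 conditions, and in experiment 2 33 to 108 and 118 to 153. The difference between experiments stayed at 0 calls. Levels gave 284 to 406, 356 to 460, 379 to 503, 332 to 413 and 2 to 39 in the same order from Mid against Pre to Dep against Mid. The single mean differences tested by permutation kept their sign, and that of Cacnb1 P1 (Post minus Pre) ran from 16.96 to 23.5 points. The fewest calls of Dep against Mid, for shares and levels, came without Dep replicate 2.

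The replicate block gave 169 genes for Mid against Pre, 202 for Post against Mid, 168 for Mid against HiT, 194 for Mid against Fed, 52 for Post against Pre and 330 over the 6 conditions. No paired analysis was possible in experiment 2 because its Mid mice share no replicate number with Pre or Post. For named genes, calls were kept in 312 of 315 cases with DESeq2, 313 with limma, 191 with diffSpliceDGE, 207 of 230 with the replicate block, 59 of 85 with the lane term and 6994 of 7290 with a library left out. Depth limits promoters of low level, such as Slc30a2 P1 and Atf3 P1 in Pre.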
